A study of Mus musculus with 36 samples.

Results

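The IFIT family (interferon-induced proteins with tetratricopeptide repeats) was represented in the gene counts by 6 genes of the 54532 listed: Ifit1, Ifit2, Ifit3, Ifit3b, Ifit1bl1 and Ifit1bl2. They were taken by symbol, with earlier results of these data known, and each was followed through all 36 libraries. The libraries came from bone marrow-derived macrophages (BMDMs), grown for 7 days from marrow of female C57BL/6 mice aged 13 to 17 weeks. WT cells carried Bmal1 flox/flox without Cre (3 libraries per treatment). KO cells were LysM-Cre;Bmal1 flox/flox (6 libraries per treatment), so that both genotypes carried the floxed Bmal1 allele and Cre was driven by the myeloid lysozyme M gene. Each genotype was treated for 6 h with vehicle (DMSO), with 100 µM CCM (Core Circadian Modulator, a small molecule that binds a cavity in the PASB domain of the clock protein BMAL1), with 100 nM lipopolysaccharide (LPS, a bacterial cell wall component sensed by the receptor TLR4), or with LPS and CCM together. The study asked how CCM acts on the inflammatory state of macrophages and whether its action needs BMAL1.

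IFIT proteins are cytoplasmic effectors of the interferon response. Viral RNA or LPS leads a macrophage to make interferon beta, which acts back on the interferon receptor (Ifnar1 and Ifnar2) and, through transcription factors that include STAT2 and IRF9, switches on genes that carry an interferon-stimulated response element (ISRE) near their start. IFIT1 binds RNA whose 5′ cap lacks the methyl mark of the host's own mRNA and keeps it from being translated, while IFIT2 and IFIT3 act in complexes with other family members. In resting macrophages these genes are nearly silent.

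All members lie in 1 cluster on chromosome 19, which spans 99.3 kb (chr19:34550694-34650009, GRCm38). In the coordinates of the count file, Ifit2 (ENSMUSG00000045932) occupies 34550694 to 34576419 on the plus strand, followed by Ifit3 (ENSMUSG00000074896, 34583531 to 34588731, plus). Ifit1bl1 (ENSMUSG00000079339, 34592888 to 34601968) lies on the minus strand and Ifit3b (ENSMUSG00000062488, 34607970 to 34613401) on the plus strand. Ifit1bl2 (ENSMUSG00000067297, 34617049 to 34640743, minus) and Ifit1 (ENSMUSG00000034459, 34640871 to 34650009, plus) start back to back, 127 bases apart. No member overlapped another gene.

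The stretches that hold ISRE letters upstream of the members are shown because 5 of the 6 members have such letters there. They were read from RefSeq promoter windows of 300 bases (GRCm38.p6), 5′ to 3′ on the strand given, and capitals mark each match to the ISRE core, which is GAAA, then any 2 bases, then GAAA, read on either strand (TTTC, any 2 bases, TTTC on the other).

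Between Ifit1bl2 and Ifit1, chr19:34640744-34640870, plus strand: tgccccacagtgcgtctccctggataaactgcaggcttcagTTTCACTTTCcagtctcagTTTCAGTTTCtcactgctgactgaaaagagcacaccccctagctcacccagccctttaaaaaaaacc
Ifit3, chr19:34583353-34583452, plus strand: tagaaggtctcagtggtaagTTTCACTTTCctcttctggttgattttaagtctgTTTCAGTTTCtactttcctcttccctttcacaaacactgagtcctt
Ifit3b, chr19:34607749-34607848, plus strand: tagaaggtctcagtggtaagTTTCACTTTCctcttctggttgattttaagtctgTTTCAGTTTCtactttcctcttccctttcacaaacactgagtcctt
Ifit1bl1, chr19:34602023-34602092, minus strand: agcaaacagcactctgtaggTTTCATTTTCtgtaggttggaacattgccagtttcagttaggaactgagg

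The divergent pair Ifit1 and Ifit1bl2 had 1 stretch between them with 2 matches. Ifit3 and Ifit3b carried the same 100 bases with 2 matches each, and Ifit1bl1 had 1 match in the stretch shown. In all, 5 of the 6 members had a match in at least 1 window, and 6 of their 9 windows did, where 3.44% of all 32851 windows in the table held one. Ifit2 had none of these letters in its windows. The BMAL1 E-box CACGTG, which reads the same on both strands, was in 0 of the 9 member windows and in 7.15% of all windows. These matches describe letters only.

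Ifit3 and Ifit3b were near copies. Their coding sequences were 99.1% identical (1198 of 1209 bases), and 31.7% of the 100-base words of the Ifit3 transcript were also in Ifit3b. The split of reads between those 2 genes was therefore uncertain. Ifit1bl1 and Ifit1bl2 shared 88.3% of their aligned coding bases, and the least alike pair, Ifit1 and Ifit2, shared 62.6%. Outside the Ifit3 pair at most 3.29% of a member's 100-base words were found in another member.

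Libraries held 13469262 to 28288923 counted reads (median 19951421). Values are CPM, counts scaled to a common library total with the TMM factors of edgeR, and differences are log2 fold changes from edgeR with a standard error (SE) and a p-value adjusted over all tested genes, called at 0.05 or below. All 8 macrophage markers examined had a median above 1 CPM in WT and in KO libraries, with sums of 16560 to 19770 CPM in WT (median 18840). In KO these sums were lower in the median and wider, at 11550 to 23220 CPM in replicates 1 to 5 (median 13960) and 11640 to 16600 CPM in replicate 6 (median 14370). Neutrophil markers summed to 382 to 631 CPM in WT libraries, 389 to 1009 CPM in KO replicates 1 to 5 and 1041 to 1107 CPM in KO replicate 6. Markers of B cells, T or NK cells, conventional dendritic cells and erythroid cells summed to at most 10.6 CPM in any library, and fibroblast markers to 302 to 1660 CPM. Plasmacytoid dendritic cell markers summed to 52.7 to 110 CPM in WT, 56.4 to 110 CPM in KO replicates 1 to 5 and 37.3 to 75.6 CPM in KO replicate 6. Their WT group medians were 55.4 CPM with vehicle, 60.4 CPM with CCM, 109 CPM with LPS and 83.1 CPM with LPS and CCM. Arntl, the gene of BMAL1, was at 7.52 to 12.8 CPM in WT and 2.02 to 10.8 CPM in KO, and 11 of 24 KO libraries were at or above the lowest WT library. The gene count takes in all exons, including any that the deletion leaves, and the KO libraries are named here by their label. KO replicate 6 stood apart among the KO libraries in the family's makeup, as described further on, and its Arntl was at 2.02 to 4.80 CPM. KO replicate 2 had Arntl at 7.76 to 10.8 CPM, within the range of the WT libraries. Calls in KO are therefore given with and without replicate 6, and calls of members also without replicate 2. The part of macrophage, neutrophil or plasmacytoid dendritic cell content or of residual Arntl in the results was not tested.

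In WT cells LPS raised every member, by 30.6-fold to 313-fold. Ifit1 was at 4.14, 5.14 and 5.43 CPM with vehicle and at 1500, 1476 and 1562 CPM with LPS. Ifit2 went from 8.85, 12.5 and 10.1 CPM to 2578, 2467 and 2588 CPM. Ifit3 went from 6.79, 8.96 and 6.47 CPM to 1022, 1038 and 1135 CPM. In each of these genes all LPS libraries lay more than 100-fold above the highest vehicle library. Ifit3b, the near copy of Ifit3, went from 1.06, 1.33 and 0.824 CPM to 146, 148 and 151 CPM. Ifit1bl1 rose from 0.607, 1.11 and 0.763 CPM to 167, 194 and 197 CPM. Ifit1bl2 was barely detected with vehicle (0.152, 0.266 and 0.0610 CPM) and reached 5.20, 5.08 and 3.66 CPM. Ifit1bl2 remained far below Ifit1, although their gene starts in the count file flank the same 127 bases. Ifit1bl2 also had a RefSeq start inside the gene, at 34629811, with no ISRE letters in its window. In bulk RNA, fewer cells of a type and less RNA per cell cannot be told apart.

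By edgeR the WT log2 fold changes under LPS were 8.29 for Ifit1 (SE 0.110, adjusted p = 1.66e-11), 7.96 for Ifit2 (SE 0.131, adjusted p = 3.37e-11) and 7.21 for Ifit3 (SE 0.127, adjusted p = 4.25e-11). They were 7.17 for Ifit3b (SE 0.115, adjusted p = 3.05e-11), 7.86 for Ifit1bl1 (SE 0.148, adjusted p = 5.48e-11) and 4.94 for Ifit1bl2 (SE 0.394, adjusted p = 2.11e-06). All 6 members were called higher, where 30.6% of the 14501 tested genes were. Their vehicle and LPS groups did not overlap, which held in the same direction for 33.2% of genes. Ranked by p among the 14501 genes, Ifit1 was number 12 and Ifit1bl2 number 2044.

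KO cells also raised all 6 members under LPS. Ifit1 ranged from 3.48 to 14.8 CPM with vehicle (median 8.03) and from 1305 to 1854 CPM with LPS (median 1582). Ifit2 ranged from 3.33 to 27.1 CPM (median 12) and then from 1121 to 2944 CPM (median 2340). The lowest LPS value of Ifit2 belonged to KO replicate 6. Ifit3 went from 3.99 to 13.7 CPM (median 8.34) to 890 to 1517 CPM (median 1084). Ifit3b went from 0.465 to 2.02 CPM (median 0.932) to 117 to 166 CPM (median 150). Ifit1bl1 moved from a range of 0.377 to 1.81 CPM (median 1.11) to one of 77.6 to 210 CPM (median 156). Ifit1bl2 again was the weakest member, at 0.0892 to 0.465 CPM with vehicle and 2.35 to 4.52 CPM with LPS. The groups were separate for every member.

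The KO log2 fold changes under LPS ran from 3.81 for Ifit1bl2 (SE 0.328, edgeR adjusted p = 5.65e-07) to 7.64 for Ifit1 (SE 0.396, adjusted p = 4.12e-09). Ifit2 stood at 7.41 (SE 0.504), Ifit3 at 7.03 (SE 0.351), Ifit3b at 6.96 (SE 0.301) and Ifit1bl1 at 7.11 (SE 0.397). All 6 were called higher, as were 22.4% of the 13648 genes tested, and all 6 had separate groups, as did 15.7% of genes in that direction. Without KO replicate 6 in either group the 6 values were 4.08 to 7.54, without KO replicate 2 they were 3.59 to 7.91, and all 6 were called in both fits. SEs were about 3 times those of WT for Ifit1 and Ifit3, and the vehicle level of KO cells was the more spread of the 2 states relative to its mean.

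**Figure D1:**
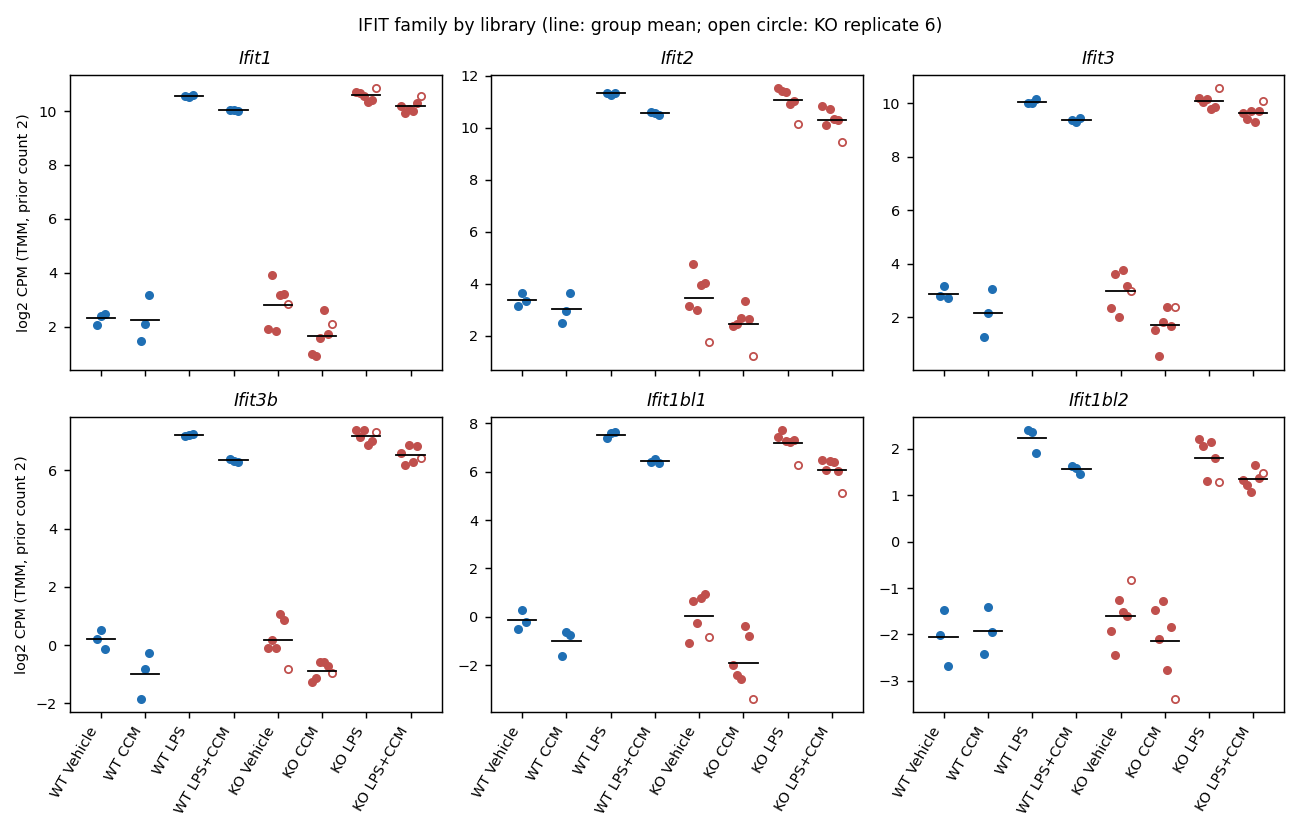
Level of each member in each library, as log2 CPM (prior count 2), over the 8 groups of genotype and treatment. Points are libraries, lines are group means and open circles are KO replicate 6. Every LPS library lies above every library without LPS in all 6 panels, and the WT LPS with CCM libraries lie below the WT LPS libraries.

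The response to LPS was not shown to differ by genotype. For the genotype by LPS interaction in cells without CCM, 0 of 6 members were called by edgeR, where 0% of genes were, and 0 of 6 had an unadjusted p under 0.05, where 0.742% of genes did. The KO minus WT difference in the LPS log2 fold change was -0.64 for Ifit1 (interval of 2 SE either way -1.54 to 0.27), -0.52 for Ifit2 (-1.68 to 0.64) and -0.14 for Ifit3 (-0.97 to 0.68). It was -0.18 for Ifit3b (-0.94 to 0.59), -0.73 for Ifit1bl1 (-1.76 to 0.31) and -1.07 for Ifit1bl2 (-2.23 to 0.09). All 6 point estimates were negative, and each interval included 0. With KO replicate 6 left out they ran from -0.34 for Ifit3 to -0.84 for Ifit1bl2, and with replicate 2 left out from 0.01 for Ifit3 to -1.29 for Ifit1bl2, with 0 of 6 called each time.

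Levels in KO and WT were compared directly in 2 states. With vehicle, 0 of 5 tested members were called (0% of genes) and 0 of 5 had an unadjusted p under 0.05 (0.82% of genes). Those KO minus WT log2 differences ran from 0.17 for Ifit3b to 0.73 for Ifit1 (interval -0.14 to 1.59). With LPS, 0 of 6 were called (0% of genes) and 0 of 6 had an unadjusted p under 0.05 (0.761% of genes). Here Ifit1 differed by 0.07 (interval -0.20 to 0.33), Ifit2 by -0.17 (-0.66 to 0.31), Ifit3 by 0.09 (-0.26 to 0.44) and Ifit3b by 0.01 (-0.25 to 0.27), while Ifit1bl1 differed by -0.26 and Ifit1bl2 by -0.38. With KO replicate 6 left out, the vehicle differences ran from 0.27 for Ifit3 to 0.73 for Ifit1, and those with LPS were 0.00 for Ifit1, -0.04 for Ifit2, -0.03 for Ifit3 and for Ifit3b, -0.13 for Ifit1bl1 and -0.29 for Ifit1bl2. None was called then, nor with KO replicate 2 left out. DESeq2 called 0 members in these genotype comparisons as well. Arntl itself was not called between KO and WT, at -0.34 with vehicle (edgeR adjusted p = 1) and -0.45 with LPS (adjusted p = 0.986).

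CCM given with LPS lowered all 6 members in WT cells. Ifit1bl1 was the most lowered, to 85.2, 91.7 and 82.3 CPM from 167, 194 and 197 CPM with LPS alone, a log2 fold change of -1.10 (SE 0.0695, edgeR adjusted p = 1.98e-05). Ifit3b stood at 84.3, 80.6 and 77.5 CPM, down from 146, 148 and 151 CPM (log2 fold change -0.87, SE 0.0505, adjusted p = 1.4e-05). Ifit2 was at 1546, 1515 and 1436 CPM, down from at least 2467 CPM in each library (-0.76, SE 0.0462, adjusted p = 1.73e-05). These 3 genes ranked 11, 7 and 9 by p among the 13579 genes tested. Ifit3 was at 669, 628 and 696 CPM against 1022, 1038 and 1135 CPM (-0.67, SE 0.0552, adjusted p = 6.28e-05). Ifit1 was the least lowered of the 3 abundant members, at 1049, 1063 and 1024 CPM against 1500, 1476 and 1562 CPM (-0.53, SE 0.0422, adjusted p = 5.41e-05). Ifit1bl2, the member with the fewest reads, was at 3.02, 2.93 and 2.66 CPM against 5.20, 5.08 and 3.66 CPM (-0.68, SE 0.197, adjusted p = 0.0499).

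All 6 members were called lower in that WT comparison, where 7.78% of genes were, and all 6 had groups that did not overlap in that direction, where 15.2% of genes did. As a share of the same-numbered LPS library, the level left with CCM was 69.2% ± 3.29 for Ifit1 (SD, n = 3), 58.9% ± 3.09 for Ifit2 and 62.5% ± 2.65 for Ifit3. It was 54.6% ± 3.32 for Ifit3b, 46.7% ± 4.69 for Ifit1bl1 and 62.8% ± 8.48 for Ifit1bl2. Every WT library with LPS and CCM still lay above every WT vehicle library in all 6 members. The calls depended on the fit used. In a single edgeR fit over all 36 libraries, 24 of them KO, the log2 fold changes were nearly the same but 0 of 6 members were called, with adjusted p from 0.362 to 1. Ifit1bl2 alone also lost its call with DESeq2 (adjusted p = 0.0599) and when any 1 library other than WT LPS replicate 3 was left out (adjusted p from 0.0842 to 0.165). Of the 13 alternatives run for Ifit1bl2 in this comparison, 8 lost the call and 5 kept it.

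In KO cells the same comparison gave differences of like size with a wider spread. Ifit1bl1 ranged from 77.6 to 210 CPM with LPS (median 156) and from 34.6 to 90.2 CPM with LPS and CCM (median 75.1), a log2 fold change of -1.14 (SE 0.239, edgeR adjusted p = 0.0916). Ifit2 ranged from 699 to 1835 CPM with CCM (median 1267) against a median of 2340 CPM (-0.79, SE 0.248, adjusted p = 0.325). Ifit3b ranged from 73.0 to 116.6 CPM with CCM (median 91.0), just under the lowest LPS library at 117.0 CPM (-0.67, SE 0.151, adjusted p = 0.105). It was the 1 member of 6 whose groups did not overlap, as was true of 0.784% of genes in that direction. Ifit3 ranged from 628 to 1077 CPM with CCM (median 813; -0.49, SE 0.176, adjusted p = 0.424) and Ifit1 from 976 to 1521 CPM (median 1131; -0.44, SE 0.148, adjusted p = 0.376). Ifit1bl2 ranged from 2.02 to 3.06 CPM (median 2.45; -0.52, SE 0.203, adjusted p = 0.491).

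No member passed the adjusted threshold in that KO comparison: 0 of 6 were called, where 0.112% of genes were. All 6 had an unadjusted p under 0.05 with a lower level under CCM, where 4.65% of genes did. DESeq2 called 2 of the 6, Ifit3b (adjusted p = 0.00597) and Ifit1bl1 (adjusted p = 0.00189), among 180 genes in all. Without KO replicate 6 in either group, edgeR called 170 genes, with Ifit2 (-0.78, adjusted p = 0.0425) and Ifit1bl1 (-1.12, adjusted p = 0.00363) among them. Without KO replicate 2 in either group it called 0 members and 0 genes. With limma voom and quality weights on all 12 libraries, 5 of the 6 were called, among 768 genes, where edgeR called 15 on the same libraries. Given the replicate number as a block, edgeR called 5 as well, among 777 genes. Same-numbered libraries did not all deviate together here (lowest correlation -0.102), so the numbers were not taken to pair them.

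Whether CCM acted differently on the LPS level in the 2 genotypes was tested directly. The KO minus WT difference in the CCM log2 fold change was 0.10 for Ifit1 (interval -0.33 to 0.53), -0.02 for Ifit2 (-0.75 to 0.71), 0.20 for Ifit3 (-0.32 to 0.72) and 0.21 for Ifit3b (-0.23 to 0.65). It was -0.02 for Ifit1bl1 (-0.72 to 0.68) and 0.18 for Ifit1bl2 (-0.45 to 0.80). Of the 6 members 0 were called by edgeR, where 0% of genes were, and 0 had an unadjusted p under 0.05, where 0.495% of genes did. A difference between the genotypes anywhere within those intervals is compatible with these libraries. With KO replicate 6 left out the same differences were 0.09 for Ifit1, -0.02 for Ifit2, 0.22 for Ifit3, 0.27 for Ifit3b, -0.01 for Ifit1bl1 and 0.07 for Ifit1bl2. No member was called in that fit or without KO replicate 2.

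**Figure D2:**
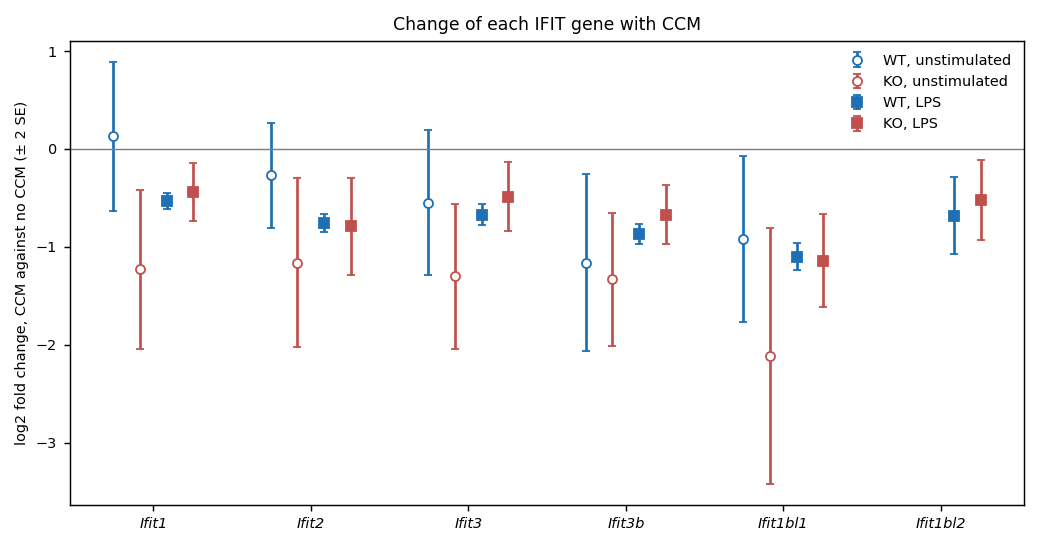
Log2 fold change (points) with 2 SE either way (bars) of each member for CCM against its control. WT is blue and KO red, and open circles are cells without LPS and filled squares cells with LPS. The WT LPS bars are the narrowest and all lie below 0, from -0.53 for Ifit1 to -1.10 for Ifit1bl1.

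Without LPS the members were at 27.1 CPM or less in every library, and CCM was compared with vehicle there too. In WT cells Ifit1 was at 2.67, 4.15 and 9.06 CPM with CCM, against 4.14, 5.14 and 5.43 CPM. Ifit2 was at 5.61, 7.64 and 12.4 CPM with CCM and Ifit3 at 2.30, 4.43 and 8.20 CPM. Replicate 3 had the highest value of these 3 genes, and the groups overlapped. Ifit3b was at 0.184, 0.47 and 0.738 CPM, all below its lowest vehicle library at 0.824 CPM. Ifit1bl1 was at 0.230, 0.559 and 0.492 CPM, all below 0.607 CPM. Ifit1bl2 (0.0920, 0.280 and 0.164 CPM) had too few reads to be tested.

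For WT cells without LPS, 0 of 5 tested members were called by edgeR, where 0.057% of genes were, and DESeq2 called 0 too. The edgeR log2 fold changes were 0.13 for Ifit1 (SE 0.380), -0.27 for Ifit2 (SE 0.266), -0.55 for Ifit3 (SE 0.371), -1.16 for Ifit3b (SE 0.454) and -0.92 for Ifit1bl1 (SE 0.424), with adjusted p from 0.448 to 0.932. Of the 5, Ifit3b alone was below 0.05 before adjustment and lower (edgeR adjusted p = 0.448), where 5.21% of genes did. Ifit3b and Ifit1bl1 were the 2 of 5 without overlap between groups, where 7.62% of genes had none in that direction.

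KO cells without LPS had lower medians with CCM in all members. Ifit1 ranged from 1.77 to 6.00 CPM (median 3.08) against a vehicle median of 8.03 CPM. Ifit2 ranged from 2.23 to 9.96 CPM (median 5.78) against 12 CPM, and Ifit3 from 1.37 to 5.16 CPM (median 3.28) against 8.34 CPM. These levels are below 1% of those with LPS. Ifit3b ranged from 0.315 to 0.574 CPM (median 0.47). Ifit1bl1 ranged from 0 to 0.678 CPM (median 0.124), with 0 reads in replicate 6, where a count of 3 would be 0.196 CPM. Ifit1bl2, not tested, ranged from 0 to 0.318 CPM. Vehicle and CCM groups overlapped for every member.

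That KO comparison gave edgeR log2 fold changes of -1.23 for Ifit1 (SE 0.404), -1.16 for Ifit2 (SE 0.433), -1.30 for Ifit3 (SE 0.369), -1.33 for Ifit3b (SE 0.339) and -2.11 for Ifit1bl1 (SE 0.654). None of the 5 was called (adjusted p from 0.93 to 1), where 0% of the 13799 genes were, and DESeq2 called none either. All 5 had an unadjusted p under 0.05 and were lower, where 1.46% of genes were. Same-numbered KO vehicle and CCM libraries deviated together, and within those 6 pairs each of the 5 members was lower with CCM in all 6, where 5.59% of genes were. The mean CCM level in the pairs was 51.4% of vehicle for Ifit1, 54.7% for Ifit2, 48.4% for Ifit3, 48.2% for Ifit3b and 20.9% for Ifit1bl1. When edgeR was given the replicate number as a block it called 4 of the 5: Ifit2 (adjusted p = 0.0273), Ifit3 (0.0325), Ifit3b (0.0346) and Ifit1bl1 (0.0157), with Ifit1 at 0.0504. That fit called 429 genes, where the fit without the block called 0. With the block and without KO replicate 6 all 5 were called, among 729 genes. Without the block, leaving out replicate 6 gave 1 call (Ifit3b, adjusted p = 0.0494) among 141 genes, and leaving out replicate 2 gave 0 among the 4 members then tested.

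The effect of CCM was also compared between cells with and without LPS. In WT cells 0 of 6 members were called for that interaction by edgeR, where 2.09% of genes were, and 0 of 6 had an unadjusted p under 0.05, where 14% of genes did. The smallest p belonged to Ifit2 (edgeR adjusted p = 0.39), with an interaction of -0.51 on the log2 scale and an interval of -1.01 to -0.01. Ifit1 was at -0.68 (-1.36 to 0.00), Ifit3 at -0.16, Ifit3b at 0.24, Ifit1bl1 at -0.22 and Ifit1bl2 at -0.95 (-2.21 to 0.31). With no low-count filter Ifit1 and Ifit2 were called, among 721 genes. In KO cells 0 of 6 were called, where 0.00685% of genes were, and 1 of 6, Ifit3b at 0.68 (edgeR adjusted p = 1), was below 0.05 before adjustment, where 3.67% of genes did. The KO values for Ifit1, Ifit3 and Ifit1bl1 were 0.82, 0.83 and 1.0, and without KO replicate 6 they were 0.92, 1.03 and 0.96, with 0 of 6 members called, as was so without KO replicate 2. These interactions share libraries with the comparisons above and are not independent of them.

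Summed per kilobase of gene, the family stood at 9.70 ± 1.56 CPM per kb (SD, n = 3) in WT with vehicle and 1985 ± 66.3 with LPS. It was 7.49 ± 4.04 with CCM and 1235 ± 14.9 with LPS and CCM. In KO (n = 6) the same sums were 12.4 ± 5.86 under vehicle, 5.13 ± 1.80 under CCM alone, 1936 ± 233 under LPS alone and 1318 ± 155 under the combination. KO libraries ranged from 1615 to 2219 CPM per kb with LPS and from 1100 to 1454 with LPS and CCM, so those ranges were separate. Without KO replicate 6 (n = 5) the KO sums were 13.1 ± 6.21, 5.103 ± 2.005, 1929 ± 260 and 1296 ± 162 in the same order. Reads were counted per gene, and the effect on these sums of reads that match both Ifit3 and Ifit3b was not tested.

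The order of the members per length in WT cells differed between states. With vehicle, WT cells had Ifit3 first per length, at 43.7% of the family sum, followed by Ifit2 at 27.4% and Ifit1 at 19.2%. With LPS the order was Ifit2 (32.7%), Ifit3 (30.7%) and Ifit1 (28.7%), with no overlap of their ranges over the 3 libraries. Ifit1bl1 (4.12%) and Ifit3b (3.73%) overlapped in range, and Ifit1bl2 made up 0.0699%. With LPS and CCM, Ifit1 was at 31.9%, Ifit2 at 30.9% and Ifit3 at 30.8%, and the range of Ifit3 overlapped both others. In KO with LPS the shares ran from 28.2% to 35.5% for Ifit1, 14.5% to 33.8% for Ifit2 and 28.8% to 44.2% for Ifit3, so these 3 were not separated, and Ifit2 was first in 3 libraries and Ifit3 in the other 3. Without scaling by length Ifit2 had the highest mean CPM in WT both with vehicle (10.5 against 7.41 for Ifit3) and with LPS. Ratios between pairs of members, a measure added after the values were seen, were compared between LPS and LPS with CCM. Of the 15 in WT, 10 had no overlap between those groups, as did 0 of 15 in KO with all replicates. These counts are not alike, since 3 against 3 libraries have 20 splits and 6 against 6 have 924. The 15 ratios come from 6 genes and are not independent, and the share over pairs of other genes was not computed. By the exact permutation test 0 of 15 had an adjusted p of at most 0.05 in either genotype. The widest WT shift was in Ifit1 over Ifit1bl1, whose per-length log2 ratio was 2.80 with LPS and 3.38 with CCM added. Its exact permutation p was 0.1, the smallest that 3 against 3 libraries can give (two-sided, adjusted over the 15 pairs 0.15). In KO cells the smallest exact permutation p, for Ifit2 over Ifit1bl1, was 0.013 (adjusted 0.195, n = 6 per group). Without KO replicate 6 the smallest, for Ifit1 and for Ifit3 over Ifit1bl1, was 0.00794 by the exact permutation test (adjusted 0.0595, n = 5). The divergent neighbours Ifit1 and Ifit1bl2 stood 8.71 apart in per-length log2 ratio in WT cells with LPS.

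**Figure D3:**
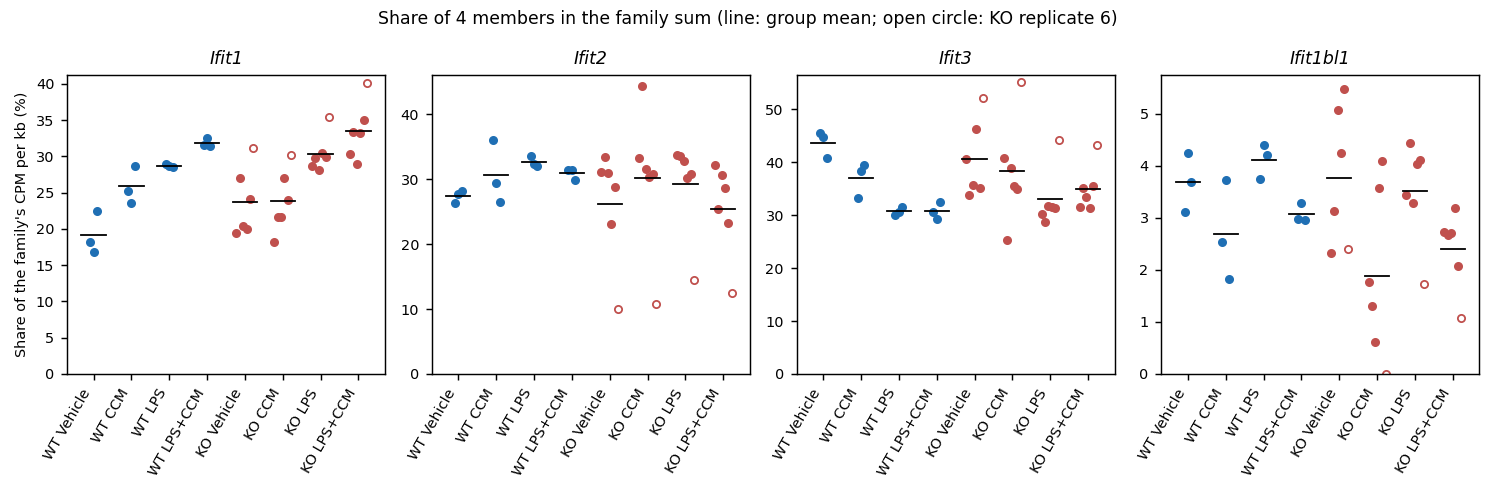
Share of the family's summed CPM per kb taken by Ifit1, Ifit2, Ifit3 and Ifit1bl1 in each library (percent), by group. KO replicate 6 (open circles) has the lowest Ifit2 share in every KO group, 14.5% with LPS against 30.2% to 33.8% in the other 5 KO libraries.

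KO replicate 6 differed in makeup rather than in sum. Its Ifit2 to Ifit1 ratio of CPM was 0.473 under vehicle, 0.525 under CCM alone, 0.605 under LPS alone and 0.460 under the combination, where all other libraries were between 0.980 and 3.03. This ratio was singled out after the values were seen. The same replicate had the highest neutrophil marker sums and the lowest Arntl of each KO group, and the part of either in the ratio was not tested.

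The interferon route to the family was followed with it. Ifnb1, interferon beta, had 0 reads in all WT libraries without LPS, where 3 counts over the group would be 0.0422 CPM with vehicle and 0.0514 CPM with CCM. With LPS it was at 1.65 ± 0.325 CPM (SD, n = 3, 105 reads in all), at least 33.9-fold over that vehicle floor. CCM lowered Ifnb1 in WT cells with LPS to 0.367 ± 0.107 CPM (20 reads), a log2 fold change of -2.14 (SE 0.354, edgeR adjusted p = 0.00322). In KO cells Ifnb1 was at 1.79 ± 0.909 CPM with LPS and 0.757 ± 0.285 CPM with LPS and CCM (-1.26, edgeR adjusted p = 0.271; -0.84 and 0.202 without KO replicate 6). These are small counts beside those of the IFIT genes.

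Of the receptor and transcription factor genes, LPS raised Ifnar1 (0.93), Ifnar2 (1.12), Stat2 (3.31), Irf9 (1.73) and Irf7 (6.15) in WT cells on the log2 scale. Irf3, which acts before interferon is made, was at 0.19 and not called. With LPS and CCM against LPS in WT, edgeR called Stat2 (-0.32, adjusted p = 0.00488) and Irf7 (-0.45, adjusted p = 0.000495) lower. Irf9 (-0.12, adjusted p = 0.209), Irf3 (-0.02), Ifnar1 (0.06) and Ifnar2 (0.03) did not pass. In KO cells none of these was called, with Stat2 at -0.47 and Irf7 at -0.38, nor without KO replicate 6, where they were at -0.47 and -0.35. The IFIT members were lowered in WT by more than Stat2 and Irf7 were, as differences of log2 fold change that were not themselves tested.

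A list of 20 genes of interferon production and signalling had 19 tested members. LPS raised 17 of them in each genotype, as it did 30.6% of all genes in WT and 22.4% in KO, and the median of the list was 1.44 in WT and 1.38 in KO, on a log2 scale where the median of all genes was -0.05. Tlr4 and Irf3 were the 2 not called. CCM with LPS lowered 8 of the 19 in WT, where 7.78% of genes were called lower (median -0.19, all genes 0.01). Among them were Usp18, a brake on receptor signalling (-0.64, edgeR adjusted p = 5.41e-05), Irf1 (-0.82, adjusted p = 0.000401), Ifnb1, Irf7, Stat2, Tyk2 (-0.32) and Tbk1 (-0.25), the last 2 being kinases of the pathway picked out once their values had been seen. In KO 0 of the 19 were called and 17 had a negative value (median -0.24), and without KO replicate 6 1 was called lower (median -0.25), as were 0.953% of genes. For LPS in KO, leaving that replicate out gave 18 raised and 1 lowered (median 1.41), where 32.6% of genes were raised and 36.9% lowered. Without LPS, CCM gave 0 calls among 18 tested in either genotype, also without KO replicate 6.

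Interferon-stimulated effectors outside the family formed the longest list. Of 30 listed genes 29 were tested, and LPS raised all 29 in both genotypes (median 4.51 in WT and 4.49 in KO), where it raised 30.6% and 22.4% of genes. Leaving out KO replicate 6 also gave 29 raised in KO, with 32.6% of genes. Rsad2 (viperin, an antiviral enzyme; 8.56) and Cmpk2 (a mitochondrial nucleotide kinase; 8.45) had the smallest p of the list in WT, both at edgeR adjusted p = 9.44e-12. With LPS and CCM, 28 of the 29 were called lower in WT (median -0.38), where 7.78% of genes were, led by Cmpk2 (-0.81, adjusted p = 1.4e-05) and Isg20 (an RNA exonuclease; -0.82, adjusted p = 2.68e-05). Parp14, named after its value was seen, was the 1 not called (-0.29, adjusted p = 0.109). In KO 0 of 29 were called and 27 were negative (median -0.42), and without KO replicate 6 8 were called lower (median -0.43), where 0.953% of genes were. Without LPS, 0 of 29 were called with CCM in either genotype, and the medians were -0.16 in WT and -0.38 in KO. With KO replicate 6 left out, 3 of the 29 were called lower there (median -0.41), where 0.489% of genes were. The ISRE core was in the windows of 11 of the 22 effector genes that had a window, and in those of 3.99% of all genes in the table.

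Genes for RNA cap handling and IFIT-binding partners formed the third list. Of 19 listed, 17 were tested. LPS raised 8 and lowered 3 of them in WT, where it raised 4441 and lowered 4698 of the 14501 genes, with Eif3c (0.81) and Eif4e (0.79) leading up and Eif3f (-0.50) and Eif3k (-0.31) leading down, all subunits or cap-binding parts of translation initiation. It raised 5 in KO, where 22.4% of genes were raised, and without KO replicate 6 it raised 8 and lowered 4, where 32.6% and 36.9% of genes were. CCM called 0 of 17 in each of the 4 comparisons, also without KO replicate 6, and with LPS the medians were 0.00 in WT and 0.11 in KO. In WT with LPS, the comparison with the most calls, 11.9% of all genes were called in either direction.

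**Figure D4:**
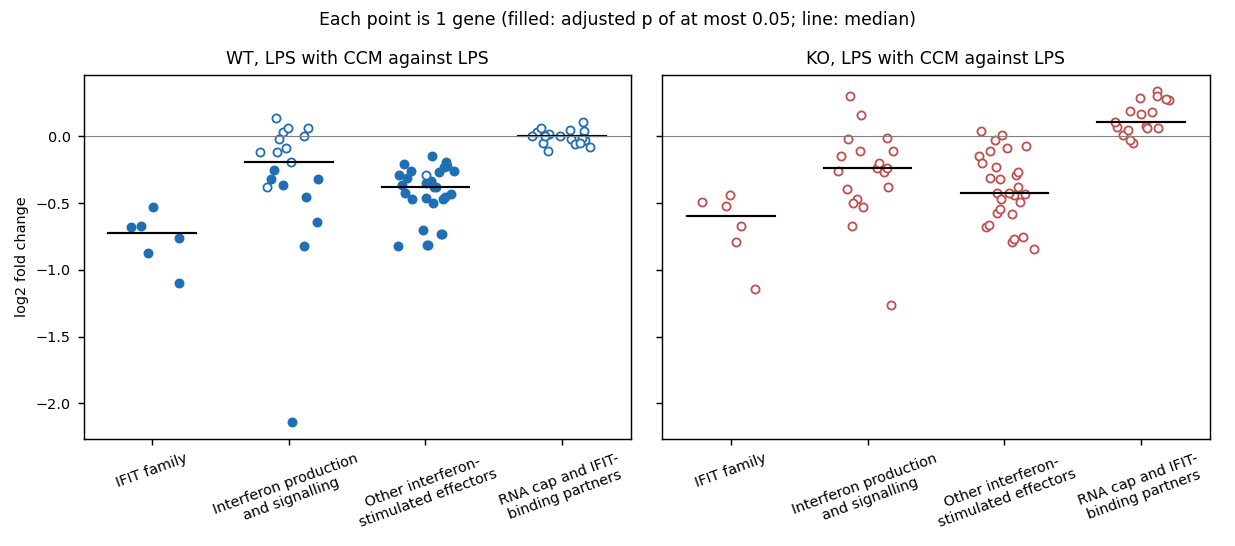
Log2 fold change for LPS with CCM against LPS of the IFIT members and the 3 gene lists, in WT and KO. Each point is a gene, filled where edgeR called it, and lines are medians. In WT the 6 members and 28 of 29 effectors are filled and below 0, and in KO, with all 6 replicates, no point is filled.

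The genes most like the 3 abundant members over the 36 libraries were sought by the correlation of log2 CPM with the mean of Ifit1, Ifit2 and Ifit3, among 15714 genes. Usp18, Zbp1 (a sensor of Z-form nucleic acid) and Ifi44 each had Pearson r = 0.998, and Rsad2 and Mx1 (an antiviral GTPase) had 0.997. These values mostly restate the split between libraries with and without LPS. Taken as deviations from the group means, the highest were Ifi44 (0.881), Mx1 (0.833), Ms4a4c (0.815), Usp18 (0.814) and Zbp1 (0.801). Without KO replicate 6 these became 0.916, 0.862, 0.836, 0.919 and 0.917. The members were not uniform on this measure. By deviations Ifit3b was at 0.739, Ifit1bl1 at 0.63 and Ifit1bl2 at -0.24, all below those 5 genes. Ifit1, Ifit2 and Ifit3, which make up the mean, were at 0.904, 0.713 and 0.843. Leaving out KO replicate 6 put Ifit1, Ifit2 and Ifit3 at 0.975, 0.911 and 0.943. Ifit3b was then at 0.734, Ifit1bl1 at 0.72 and Ifit1bl2 at -0.24. All points come from the same 36 libraries and share their depth and culture, so the values are descriptions.

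Within 300 kb of the cluster lay 7 further protein-coding genes, of which 6 were tested. Ch25h, which makes 25-hydroxycholesterol and lies on the side of Ifit2, followed the family: 5.68 under LPS in WT, and -0.81 for CCM with LPS (edgeR adjusted p = 0.000222). Lipa, a lysosomal lipase between Ch25h and Ifit2, went the other way, at -1.28 under LPS and 0.23 with CCM (adjusted p = 0.0439). Fas, a death receptor, rose under LPS (3.79) and was at 0.00 with CCM. Pank1 and Kif20b both fell under LPS by 1.89 and were not called with CCM (0.71 and 0.09), and Acta2 was called in neither comparison (-0.24 and -0.21). The lower level with CCM was thus not shared by all genes of the region. In KO, Ch25h was at 5.30 under LPS and -0.81 with CCM (edgeR adjusted p = 0.0662). Leaving out KO replicate 6 gave 5.54 and -0.71, and the latter was called (adjusted p = 0.0251).

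**Figure D5:**
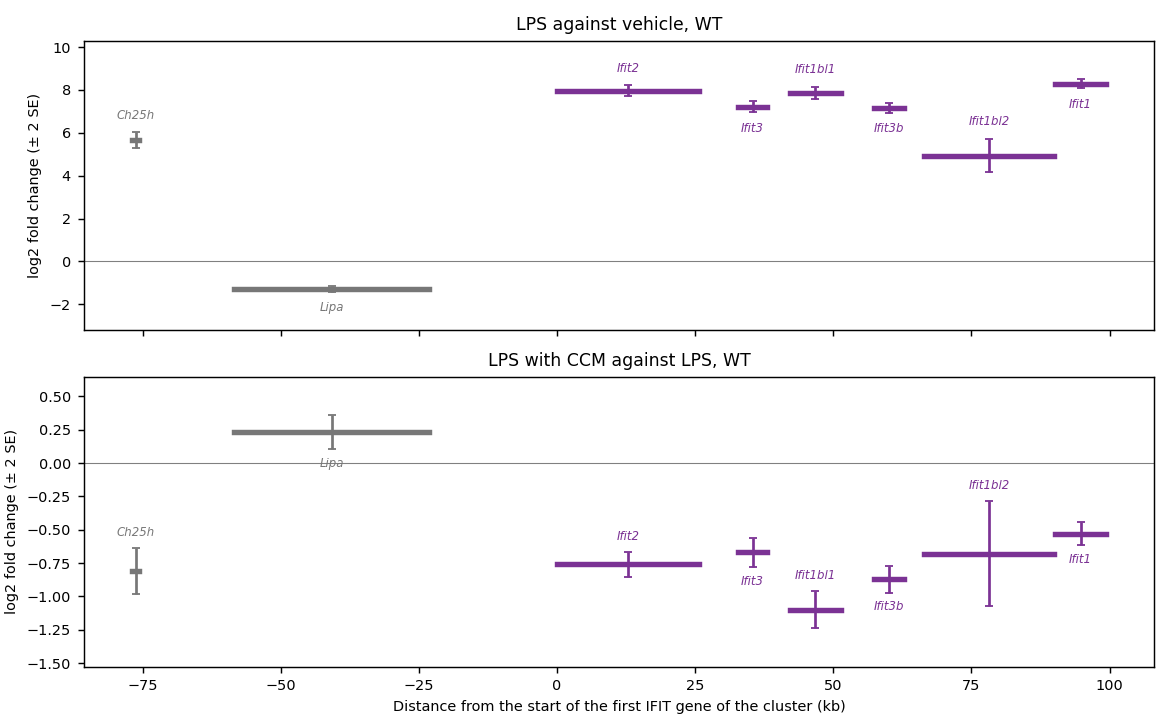
Log2 fold change with 2 SE either way in WT cells for the 6 members, Ch25h and Lipa, against distance in kb from the start of the cluster, for LPS against vehicle and for LPS with CCM against LPS. Ch25h and the members are raised by LPS and lowered by CCM, and Lipa, between them, has the opposite signs.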

How the data were processed

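Poly(A)-selected RNA of 36 libraries was sequenced for the authors by Novogene. Per the processing notes, reads were trimmed with fastp, aligned to mm10 with HISAT2 2.0.5 and counted per gene with featureCounts 1.5.0-p3. The strand setting is not given in the sources used here. The authors deposited raw counts per gene with gene lengths, coordinates and symbols. Per-sample columns not used numbered 0.

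From these counts, each comparison was fitted by edgeR 4.0.16 (R 4.3.3) on its own groups with filterByExpr, TMM and the quasi-likelihood test (two-sided), and p was adjusted by Benjamini-Hochberg over all genes tested. Interactions were fitted over their groups together. The code was tested on simulated counts. Alternatives were DESeq2 1.42.0, RLE factors, library totals, no filter, limma 3.58.1 voom with quality weights, 1 fit over all libraries, a replicate block and leaving out each replicate. Leaving out KO replicate 6 or 2 throughout, with or without the block, and member ratios were added after the values were seen. Members and lists were chosen with earlier results of these data known. Named besides the members were the interferon route, Arntl, up to 2 called genes of a list per direction, the 5 genes most like Ifit1, Ifit2 and Ifit3, and the protein-coding genes within 300 kb; other genes are said to be named after their values were seen, and results of 1 gene are not reported here.

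Replicate numbers come from the labels, which do not say what a number marks. Over all genes, same-numbered libraries deviated together in WT LPS with LPS and CCM (r from 0.151 to 0.36), KO vehicle with CCM (0.337 to 0.839) and KO vehicle with LPS (0.3 to 0.83), each pair above 0.1. In WT vehicle with CCM (lowest 0.052), WT vehicle with LPS (0.046) and KO LPS with LPS and CCM (-0.102) at least 1 pair fell below 0.1, and the numbers were not taken to pair the libraries. Libraries of a group differed beyond counting noise (chi-square per degree of freedom 4.34 to 371 over 72 pairs). The labels do not tie libraries to separate animals, so p-values measure the spread between these libraries. The paper states that all conditions used female mice, with n = 3 for WT and n = 6 for KO. Floors and counts cover counting error only. Gene models matched GENCODE M21 coordinates for 5 of 6 members. Promoter windows are RefSeq, GRCm38.p6, and all 6 members were matched by symbol.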

Additional observations from a re-analysis of the deposited data

Results flagged for a closer look

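Of 94 groups of 6 libraries examined for a library far from the others, 19 had one by Dixon's test at 95%, where chance alone gives about 5%, and 17 of the 19 were KO replicate 6. In that replicate the share of the family taken by Ifit2 was 14.5% with LPS (other KO libraries 30.24 to 33.78), by Ifit1 35.5% (28.15 to 30.43), and by Ifit3 44.2% (28.75 to 31.67) and, with LPS and CCM, 43.2% (31.41 to 35.51). Its ratio of Ifit2 to Ifit1 was 0.605 with LPS (1.47 to 1.74) and 0.473 with vehicle (1.70 to 2.36). Ifnar1 was low in it, at 84.9 CPM with CCM and 102 CPM with vehicle, and so was Ifnar2, at 140 CPM with LPS, 40.0 CPM with CCM and 60.04 CPM with vehicle. Irf7 was high with LPS at 1942 CPM. Irf3 was high in all 4 states, at 85.5 CPM with LPS, 114 CPM with CCM, 115 CPM with LPS and CCM and 94.6 CPM with vehicle. Arntl was low with vehicle at 2.87 CPM (6.397 to 7.977). The other 2 were Ifnb1 in KO vehicle replicate 4 at 0.0961 CPM, or 3 reads where the others had 0, and Stat2 in KO vehicle replicate 3 at 20.9 CPM (26.1 to 28.5). The cause of these values was not tested.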

How the results depend on the processing

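Of 1129 member values recomputed, 1042 kept direction and side of the threshold, 13 lost the call, 34 gained it and 40 changed sign. All 6 members stayed called under LPS in both genotypes in every alternative run. With LPS and CCM in WT, 0 of 6 were called in the fit over all 36 libraries (17 genes in all), and 5 to 6 with 1 library left out. Of the KO members with LPS and CCM, DESeq2 called 2 (180 genes in all), voom 5 (768) and the 36-library fit 1 (285). Leaving out 1 library gave 0 to 1, with the 1 (37) when KO LPS replicate 6 was left out. Omitting replicate 6 from both groups gave 2 (170). The replicate block called 5 (777), and the block without replicate 6 called 4 (304). Of the KO members with CCM alone, voom called 1 (299 genes in all) and the 36-library fit 1 (14). Leaving out any 1 library gave 0, and omitting replicate 6 from both groups gave 1 (141). The replicate block called 4 (429), and the block without replicate 6 called 5 (729). For the WT interaction of CCM and LPS, no low-count filter gave 2 (Ifit1 and Ifit2), among 721 genes.

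The replicate block changed no other count of called members. It called 3220 genes with LPS and CCM in WT against 1621 without it, and 9774 against 6433 for LPS in KO. It was not applied to KO against WT at vehicle or at LPS, whose numbers do not pair. Over alternatives, genes called ranged from 0 to 377 for CCM in WT (8 as reported), 0 to 729 in KO (0), 17 to 3220 for CCM with LPS in WT (1621), 0 to 777 in KO (15), 0 to 721 for the WT interaction (308), 0 to 100 for the KO one (1), 5644 to 10611 for LPS in WT (9139) and 5466 to 10023 in KO (6433). With library totals in place of TMM, the family sum was 1752 (WT LPS), 1159 (WT LPS and CCM), 1683 (KO LPS) and 1150 (KO LPS and CCM) CPM per kb. Without scaling by length the Ifit2 share in WT with LPS was 46.6%.

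Changes of sign were in values that were not called. Leaving out 1 library, Ifit1 for CCM in WT ran from -0.53 to 0.45. The WT interaction ran from -0.17 to 1.01 for Ifit3b, -0.48 to 0.54 for Ifit3 and -0.39 to 0.04 for Ifit1bl1. The KO interaction of Ifit1bl2 was -0.07 with DESeq2, -0.01 with RLE, -0.37 with voom, -0.04 with the block, -0.15 to 0.35 leaving out any replicate but 6, -0.48 without replicate 6 and -0.52 without it and with the block. KO against WT with vehicle ran from -0.06 to 0.36 for Ifit3b. KO against WT with LPS ran from 0.00 to 0.11 for Ifit1, -0.03 to 0.15 for Ifit3 and -0.03 to 0.06 for Ifit3b, and was with voom 0.00 for Ifit1, -0.04 for Ifit3 and -0.07 for Ifit3b, with library totals -0.04 and with no filter -0.01 for Ifit3b. Genotype by LPS ran from -0.34 to 0.08 for Ifit3 (0.01 with voom) and -0.43 to 0.12 for Ifit3b (-0.40 without KO replicate 6). Genotype by CCM ran from -0.07 to 0.09 for Ifit2 (0.07 with voom) and -0.10 to 0.10 for Ifit1bl1 (0.12 with voom). The causes were not tested. Depth limits the members mainly without LPS, where Ifit1bl2 had too few reads for a test.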
